A study of Ovis aries with 20 samples.

Results

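The EGF-like factors AREG, EREG and BTC, their receptor EGFR, and the cumulus matrix genes PTGS2, HAS2, TNFAIP6, PTX3 and VCAN were described in the 2 cell layers of the sheep follicle wall, granulosa and theca. These 9 genes were picked by name from the 28524 genes of the deposited table, of which 24823 had a value above 0 in some library. The prenatal T animals were daughters of ewes injected intramuscularly with 100 mg testosterone propionate (1.2 mg per kg) 2 times a week over days 30 to 90 of gestation, and the control animals were daughters of ewes given vehicle on the same days. All animals were 21 months old, and in all of them estrus had been synchronized by 2 injections of 10 mg prostaglandin F2α given 11 days apart, with ovaries taken 18 hours after the last one. Granulosa and theca cells were microdissected from 14 µm ovary sections, and the cells of several antral follicles of an animal were pooled, so each library is a mean over follicles of that animal. The labels list 10 animals, 5 per treatment, each with both layers. The table holds 5 prenatal T granulosa, 4 control granulosa, 5 prenatal T theca and 5 control theca libraries. Control sheep 139 enters with its theca alone, its granulosa cells being not analysed here.

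Ovulation starts with a surge of luteinizing hormone (LH), and in mice the mural granulosa cells answer it by making amphiregulin (AREG), epiregulin (EREG) and betacellulin (BTC), which are cut from the cell surface and act on the EGF receptor (EGFR) of neighbouring granulosa and cumulus cells. The cumulus cells then switch on prostaglandin synthase 2 (PTGS2) and hyaluronan synthase 2 (HAS2), and spread into a hyaluronan-rich matrix. TNFAIP6 transfers protein chains onto hyaluronan, PTX3 ties those chains together, and versican (VCAN) is a large proteoglycan that binds hyaluronan. In RefSeq's gene table of the sheep assembly ARS-UI_Ramb_v3.0 the 3 ligand genes lie on the same chromosome, AREG directly beside BTC with 0 protein-coding genes between them, and 1 such gene between AREG and EREG.

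Levels are given as normalized counts, that is, reads per gene after the authors' scaling of each library by its size factor. They are not scaled to gene length, so no level is compared between genes. The libraries held 12699124 to 16065633 reads in prenatal T granulosa and 13561425 to 26028146 in control granulosa, and 14063768 to 15559527 in prenatal T theca and 14316845 to 18057852 in control theca. The libraries of prenatal T sheep 209 stood apart and went against their labels. In its granulosa library the granulosa markers AMH, FSHR and CYP19 (aromatase) were at 0, all 10 listed granulosa markers were below every other granulosa library, and their summed level was 888, against 29871 to 137970 in the other 8. In its theca library the theca enzyme CYP17A1 was at 0, 9 of 10 theca markers were below every other theca library, and the sum was 240250, against 422540 to 683760 in the other 9. COL1A1 (127250) and COL1A2 (106210) made up most of that sum. Neutrophil markers summed to 62155 in its granulosa library, against 2.78 to 62.4 in the others, and to 34447 in its theca library, against 8.73 to 33.5. Epithelial markers were higher than in every other library for 9 of 9 genes in both layers, with sums of 92134 in granulosa, against 149 to 4018, and of 22547 in theca, against 104 to 682. Macrophage markers were higher than in every other library for 6 of 7 genes in granulosa (sum 6407, against 211 to 2712). In theca this held for 7 of 7 (10866, against 561 to 2221). Smooth muscle and pericyte markers were highest for 6 of 8 genes in theca (273490, against 106880 to 220840). In granulosa 3 of 8 were highest, while the sum was lowest (16608, against 18055 to 44173). Each result is therefore given with and without sheep 209.

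In sheep 209 most of the ovulation genes were far outside the range of all other animals. It held the highest level of 7 of the 9 genes among granulosa libraries and of 9 of 9 among theca libraries. Over all genes tested it was the highest library for 31.9% in granulosa and 30.4% in theca. The exceptions in granulosa were HAS2, in which it was the next after sheep 315, and VCAN, in which it was the lowest of 9. PTGS2, the prostaglandin-making enzyme, reached 3048 in its granulosa library, against a highest value of 5.06 in the other 8, which is 603 times as high, and 7279 in its theca library, against 32.995 at most in the other 9, 221 times as high. PTX3 was 25.3 times the next granulosa library and 19.8 times the next theca library. EREG was 7.72 times the next granulosa and 50.04 times the next theca library, and TNFAIP6 was 6.28 and 14.7 times the next. These are the same libraries in which the neutrophil, epithelial and macrophage markers were high and the follicle markers low. Smooth muscle and pericyte markers were high in the theca library as well. The part of those cells in the members' levels was not tested.

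**Figure D1:**
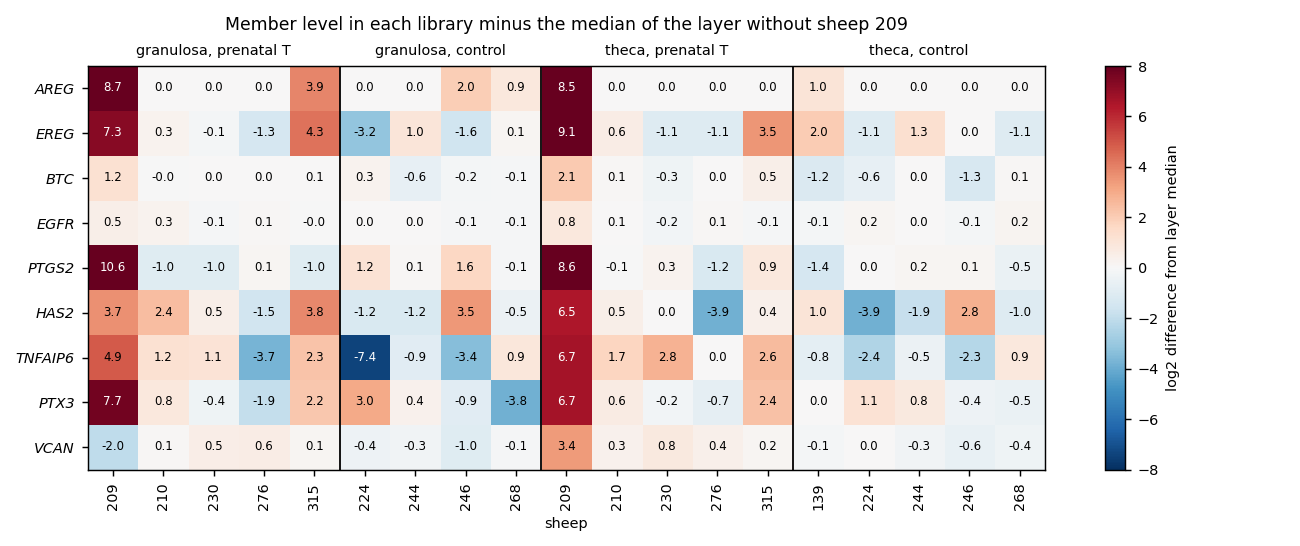
Level of each gene in each library on the log2(normalized count + 1) scale, minus the median of that layer's libraries without sheep 209; columns are animals, grouped by layer and treatment. Sheep 209 is the darkest column in both layers for AREG, EREG, PTGS2 and PTX3, while its VCAN value is low in granulosa and high in theca.

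The ligands AREG and EREG were near the detection limit outside sheep 209 and sheep 315. AREG had 425 normalized counts in the granulosa library of sheep 209, 14.2 in that of sheep 315 and 0 in the other 3 prenatal T granulosa libraries, against 0, 0, 0.811 and 2.89 in control granulosa. Theca libraries held 359 in sheep 209 and 0 in the other 4 prenatal T libraries, against 1.06 in sheep 139 and 0 in the other 4 controls. AREG was thus at 0 in 13 of 19 libraries, 5 granulosa and 8 theca. In those libraries a count of 0 allows a level of up to 1.67 to 3.44 normalized counts, a limit of 3 reads per library that covers counting error only. A gene was tested where 5 or more libraries reached a level of 10, which AREG did not.

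EREG had 2184, 16.2, 11.8, 4.58 and 283 normalized counts in the granulosa of prenatal T sheep 209, 210, 230, 276 and 315, against 26.5, 3.61, 14.6 and 0.556 in the granulosa of control sheep 244, 246, 268 and 224. The groups overlapped, since 3 of the prenatal T animals lay within the control range. The log2 change in granulosa was 3.003 ± 1.77 (SE, limma adjusted p = 0.875), and 1.70 ± 1.30 without sheep 209 (limma adjusted p = 0.782). In theca EREG had 1139, 2.13, 0, 0 and 22.8 in the same prenatal T animals, against 7.40, 4.02, 1.08, 0 and 0 in controls 139, 244, 246, 268 and 224, and it did not pass the filter there. Without sheep 209, EREG averaged 78.9 ± 136 in prenatal T granulosa (SD, n = 4), of which sheep 315 made up most, and 11.3 ± 11.8 in control granulosa (n = 4).

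BTC was detected in all 19 libraries. In granulosa it had 207 in sheep 209 and 89.4, 90.1, 90.5 and 93.5 in the other prenatal T animals, against 57.3, 79.5, 82.7 and 111 in controls. Theca levels were 101 in sheep 209 and 24.5, 17.8, 22.5 and 31.9 in the others, against 9.52, 23.1, 8.66, 23.6 and 14.0 in controls. The 4 prenatal T granulosa values without sheep 209 lay close together and inside the control range, and the theca groups overlapped as well. The log2 change was 0.41 ± 0.33 in granulosa (SE, limma adjusted p = 0.875) and 1.08 ± 0.51 in theca (0.644), and without sheep 209 it was 0.17 ± 0.24 (0.873) and 0.67 ± 0.40 (0.506).

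The receptor EGFR varied least. It had 5468, 4927, 3703, 4290 and 3960 normalized counts in prenatal T granulosa (sheep 209, 210, 230, 276 and 315), against 3979, 3685, 3758 and 4032 in control granulosa (sheep 244, 246, 268 and 224). In theca it had 3853, 2242, 1855, 2300 and 1992 in prenatal T animals, against 1953, 2155, 1959, 2509 and 2433 in controls. Apart from sheep 209, which was highest in both layers, the groups overlapped in both layers. The log2 change was 0.20 ± 0.13 in granulosa (SE, limma adjusted p = 0.875) and 0.11 ± 0.19 in theca (0.867), and the theca value changed sign to -0.068 ± 0.11 without sheep 209 (0.829).

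**Figure D2:**
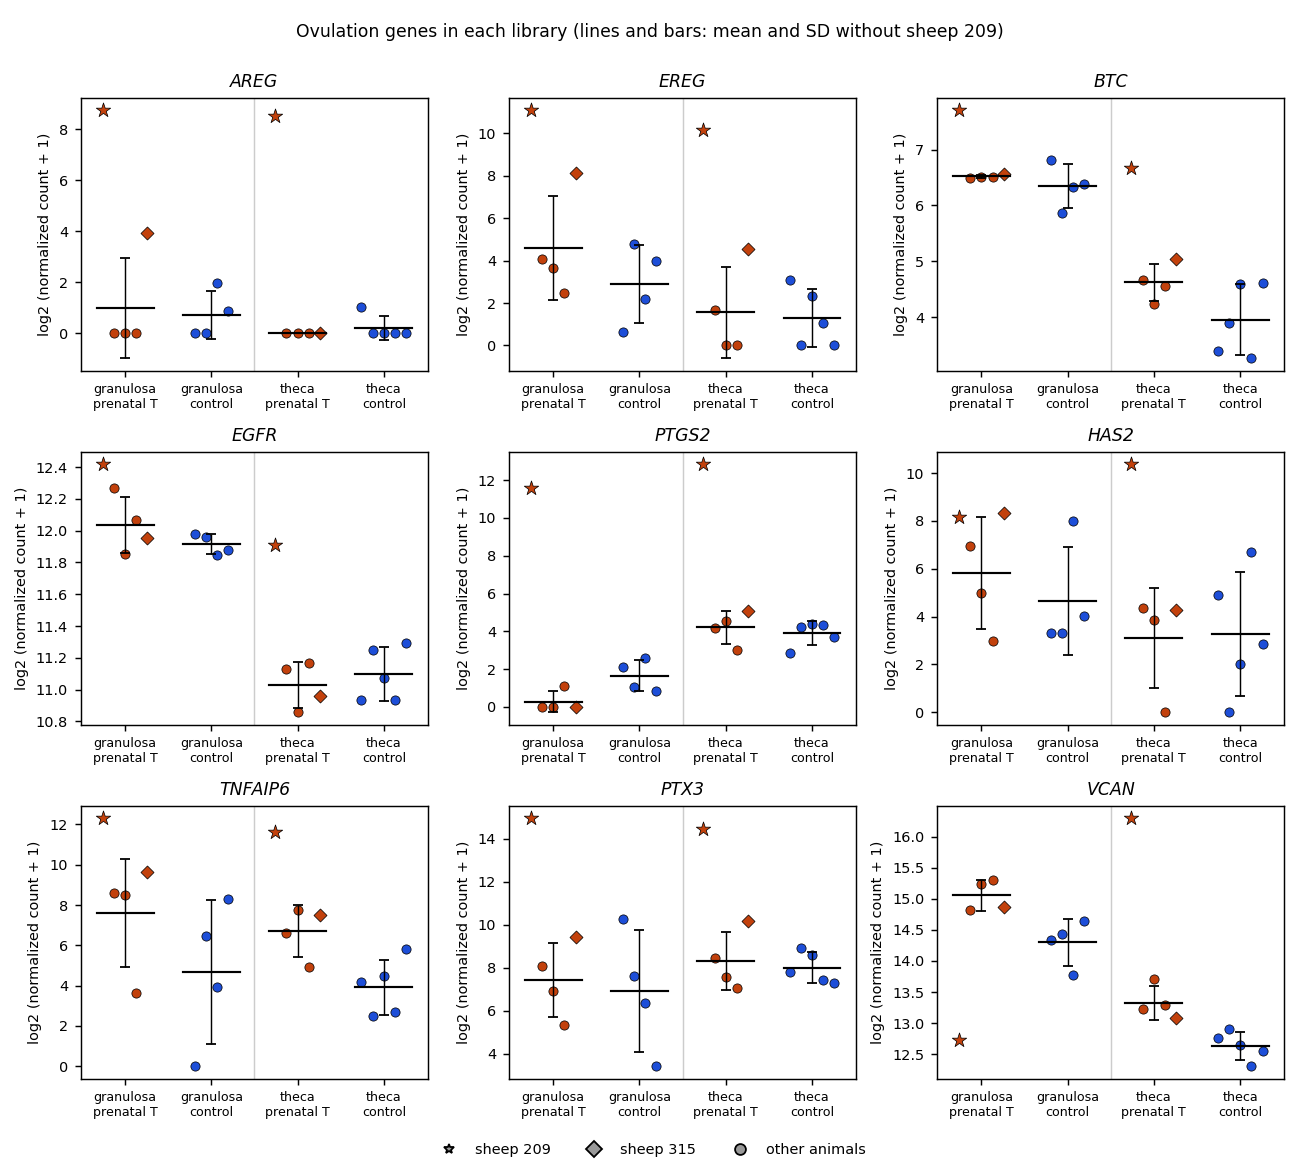
Normalized counts of the 9 genes in each library, as log2(value + 1), in prenatal T and control granulosa and theca; each symbol is a library, and the black line and bar are the mean and SD without sheep 209. VCAN is the gene in which prenatal T libraries other than the granulosa library of sheep 209 all lie above the controls, in both layers.

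PTGS2 outside sheep 209 was a theca transcript. In granulosa it had 0, 0, 1.15 and 0 in prenatal T sheep 210, 230, 276 and 315, against 1.10, 5.06, 0.811 and 3.33 in controls, and it did not pass the filter. In theca it had 17.1, 22.0, 7.17 and 32.995 in the same prenatal T animals, against 6.35, 20.1, 19.5, 12.2 and 17.7 in controls, and these groups overlapped. The log2 change in theca was 2.01 ± 1.56 (SE, limma adjusted p = 0.723), and 0.29 ± 0.50 without sheep 209 (0.837).

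HAS2, the enzyme that makes hyaluronan, varied widely within every group. In granulosa it had 287, 123, 30.4, 6.88 and 322 in prenatal T animals 209, 210, 230, 276 and 315, against 8.82, 254, 15.4 and 8.89 in controls 244, 246, 268 and 224. Theca levels were 1315, 19.2, 13.6, 0 and 18.2 in prenatal T animals, against 28.6, 3.01, 102, 6.11 and 0 in controls 139, 244, 246, 268 and 224. Control sheep 246 was the highest control in both layers. The log2 change was 1.62 ± 1.35 in granulosa (SE, limma adjusted p = 0.875) and 1.29 ± 1.77 in theca (0.83), and without sheep 209 it was 1.15 ± 1.34 (0.843) in granulosa and, with the sign turned, -0.16 ± 1.33 (0.972) in theca.

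TNFAIP6 had 5043, 387, 359, 11.5 and 803 normalized counts in prenatal T granulosa (sheep 209, 210, 230, 276 and 315), against 86.0, 14.5, 317 and 0 in control granulosa (sheep 244, 246, 268 and 224). In theca it had 3151, 98.2, 215, 29.7 and 180 in the prenatal T animals, against 16.9, 21.1, 5.41, 55.0 and 4.67 in controls 139, 244, 246, 268 and 224. In theca 4 of 5 prenatal T libraries lay above every control, and sheep 276 lay below control sheep 268. The log2 change was 3.86 ± 1.97 in granulosa (SE, limma adjusted p = 0.875) and 3.76 ± 1.11 in theca (unadjusted p = 0.00611, limma adjusted p = 0.644). Without sheep 209 it was 2.92 ± 1.83 in granulosa (limma adjusted p = 0.761) and 2.78 ± 0.74 in theca (unadjusted p = 0.00326, limma adjusted p = 0.371), where TNFAIP6 averaged 131 ± 83.1 in prenatal T animals (SD, n = 4) and 20.6 ± 20.5 in controls (n = 5).

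PTX3 had 31618, 270, 119, 40.1 and 687 in prenatal T granulosa, against 194, 81.7, 9.73 and 1248 in controls 244, 246, 268 and 224. Its theca levels were 22579, 346, 187, 134 and 1139 in prenatal T sheep 209, 210, 230, 276 and 315, against 222, 391, 170, 156 and 489 in controls. Outside sheep 209 the groups overlapped in both layers. The log2 change was 2.02 ± 1.97 in granulosa (SE, limma adjusted p = 0.876) and 1.53 ± 1.20 in theca (0.724), and without sheep 209 it was 0.52 ± 1.36 (0.938) and 0.29 ± 0.57 (0.853).

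VCAN was the only one of the 9 genes whose treatment groups did not overlap once sheep 209 was left out. In granulosa it had 28878, 38619, 40526 and 29873 normalized counts in prenatal T sheep 210, 230, 276 and 315, against 22231, 13991, 25663 and 20732 in controls 244, 246, 268 and 224. In theca it had 9566, 13344, 9963 and 8690 in the same prenatal T animals, against 6928, 6392, 5061, 5982 and 7638 in controls 139, 244, 246, 268 and 224. All 4 prenatal T values were thus above all control values in both layers, which held for 1.15% of the genes tested in granulosa and 2.53% in theca. The means were 34474 ± 5952 in prenatal T granulosa and 20654 ± 4898 in control granulosa (SD, n = 4 each), and 10391 ± 2039 in prenatal T theca (n = 4) and 6400 ± 972 in control theca (n = 5).

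The log2 change of VCAN without sheep 209 was 0.76 ± 0.22 in granulosa (SE, unadjusted p = 0.00668, limma adjusted p = 0.704) and 0.69 ± 0.15 in theca (unadjusted p = 0.000815, limma adjusted p = 0.371), so it did not pass the threshold of 0.05 in either layer. By unadjusted p it stood at rank 116 of 14460 genes in granulosa and at rank 19 of 15304 in theca. With sheep 209 included the granulosa value was 0.29 ± 0.51 (limma adjusted p = 0.903), because that library held 6757, below all 4 controls. In theca the same animal held 80403, and the log2 change was 1.29 ± 0.54 (unadjusted p = 0.0359, limma adjusted p = 0.644). With all libraries, every prenatal T library was above every control for VCAN in theca but not in granulosa, against 1.28% of the genes tested in theca and 0.72% in granulosa. Without both sheep 209 and sheep 315 the change was 0.82 ± 0.23 in granulosa (limma adjusted p = 0.731) and 0.77 ± 0.16 in theca (0.49).

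Markers of other cells moved with these groups in part. Without sheep 209, smooth muscle and pericyte markers in granulosa libraries summed to 18055 to 27305 in prenatal T animals and 27840 to 44173 in controls, with no overlap, and in theca libraries to 146810 to 170660 in prenatal T animals and 106880 to 220840 in controls. MYH11 made up most of the granulosa sums, at 11242 to 37684, so they do not describe every marker of the list. The granulosa library of prenatal T sheep 315 had the lowest MYH11 but the highest DES (266), CNN1 (622), PDGFRB (1870) and TAGLN (3700). Theca markers summed to 15592 to 28425 in prenatal T granulosa and to 26122 to 55896 in control granulosa. In theca libraries the theca markers summed to 422540 to 520690 in prenatal T animals and 472100 to 683760 in controls, and the granulosa markers to 13164 to 27620 in prenatal T animals and 10722 to 22584 in controls. The collagens COL1A1 (250560 to 427690 in theca libraries) and COL1A2 (142460 to 223580) made up most of the theca marker sums in both layers. Those sums therefore do not describe the other theca markers, such as CYP17A1 (585 to 2523 in theca libraries). VCAN was itself higher in granulosa than in theca, and the part of the layers' mixture and of smooth muscle cells in its prenatal T change was not tested. In such bulk samples, fewer cells of a type and less RNA per cell cannot be told apart.

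**Figure D3:**
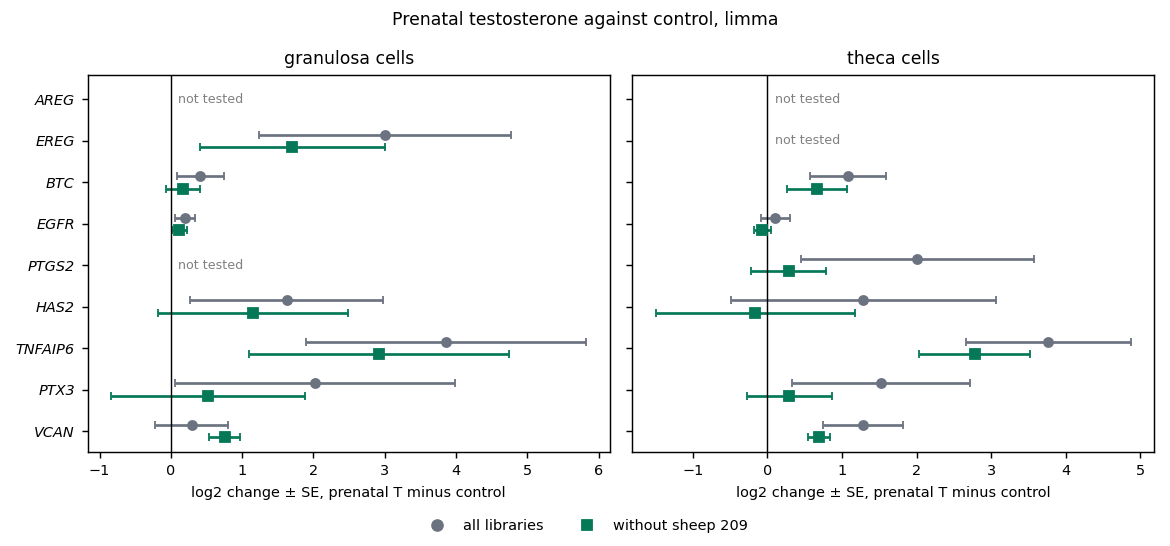
Log2 change, prenatal T minus control, with its SE for each gene tested, in granulosa and theca cells, from all libraries (grey circles) and without sheep 209 (green squares). Without sheep 209 the VCAN interval is narrow and above 0 in both layers, at 0.76 ± 0.22 in granulosa and 0.69 ± 0.15 in theca, while those of HAS2 and PTX3 span 0 in theca.

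None of the 9 genes passed the threshold for prenatal T in either layer by limma. All 7 tested genes had a value above 0 in granulosa, with a median log2 change of 1.62 (all genes' median, -0.0145), and all 7 in theca, with a median of 1.29 (all genes' median, 0.000146). The genes tested are those that passed the filter, so these counts do not describe all 9. Without sheep 209, 7 of 7 were above 0 in granulosa, with a median of 0.76 (all genes' median, -0.0133), and 5 above and 2 below 0 in theca, with a median of 0.29 (-0.0125). The background was the same: limma called 0.0% of the 14724 genes tested in granulosa and 0.0% of 15492 in theca, and 0.0% of 14460 and 0.0% of 15304 without sheep 209. At an unadjusted p under 0.05 there were 622 genes in granulosa and 1192 in theca, and 1013 and 1854 without sheep 209. edgeR's quasi-likelihood test also called 0 genes in these fits, with 835 and 1561 genes at an unadjusted p under 0.05, and 1013 and 1947 without sheep 209. DESeq2 called 16 genes in granulosa and 7 in theca, none of them among the 9. Without sheep 209 DESeq2 called 32 genes in granulosa, none among the 9, and 58 in theca, among them VCAN (log2 change 0.71, DESeq2 adjusted p = 0.0222) and TNFAIP6 (2.67, DESeq2 adjusted p = 0.0297), against 0.242% of all genes called higher there.

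Whether the prenatal T effect differed between the layers was tested with each animal as a block, since both layers come from the same animals. None of the 8 genes tested passed (limma called 0.0% of 16269 genes, and 0.0% of 16021 without sheep 209). There were 881 genes at an unadjusted p under 0.05, and 1456 without sheep 209, and edgeR and DESeq2 also called 0 genes. The VCAN difference, granulosa minus theca, was -1.02 ± 0.77 with all libraries (SE, limma adjusted p = 0.96) and 0.047 ± 0.18 without sheep 209 (0.958), where the changes in the layers were of like size. The smallest unadjusted p among the 9 genes without sheep 209 was that of PTGS2, with a difference of -1.54 ± 0.64 (unadjusted p = 0.0293, limma adjusted p = 0.506), whose prenatal T granulosa libraries were nearly all at 0.

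Between the layers themselves 6 of the 8 genes tested passed the threshold. limma called EREG, BTC, EGFR, HAS2 and VCAN higher in granulosa and PTGS2 higher in theca, with and without sheep 209. Of all genes, 29.2% were called higher and 28.0% lower in granulosa with all libraries, and 32.9% higher and 32.2% lower without sheep 209, so a call between the layers was common. BTC averaged 86.8 ± 15.2 in granulosa (SD, n = 8) and 19.5 ± 7.64 in theca (n = 9) without sheep 209, and EGFR averaged 4042 ± 410.2 in granulosa and 2155 ± 231 in theca. Both were higher in granulosa in 9 of 9 animals, the log2 difference being 2.11 ± 0.19 for BTC (SE, limma adjusted p = 2.98e-08) and 0.90 ± 0.052 for EGFR (limma adjusted p = 1.83e-10) without sheep 209. Neither lost its call in any setting run.

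VCAN averaged 27564 ± 8946 in granulosa (SD, n = 8) and 8174 ± 2541 in theca (n = 9) without sheep 209, a log2 difference of 1.71 ± 0.091 (SE, limma adjusted p = 6.28e-11). It was higher in granulosa in 8 of 9 animals, by 1.44 to 2.10, and in sheep 209 it was the other way by -3.57. Within control animals the difference was 1.69 ± 0.13 (limma adjusted p = 1.47e-06), and within prenatal T animals 0.67 ± 0.67 (0.467), or 1.73 ± 0.12 without sheep 209 (5.57e-06). With all libraries it was 1.18 ± 0.38 (0.0135), and edgeR then did not call it (adjusted p = 0.0647).

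**Figure D4:**
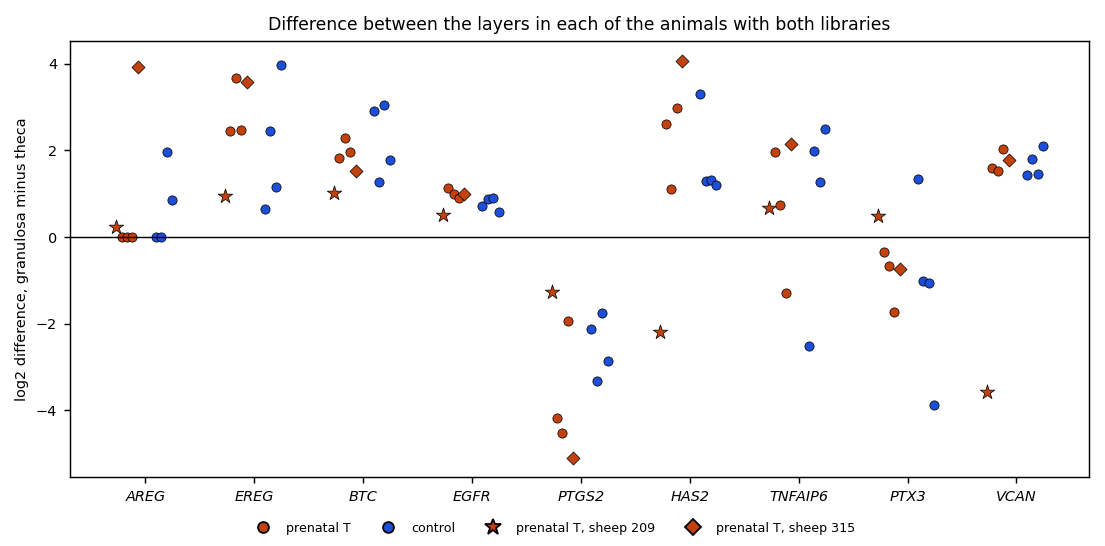
Difference between the layers on the log2(normalized count + 1) scale, granulosa minus theca, in each of the 9 animals with both libraries, prenatal T left of control for each gene; the star is sheep 209 and the diamond sheep 315. BTC, EREG and EGFR are above 0 and PTGS2 below 0 in all 9 animals, and VCAN and HAS2 are above 0 in all but sheep 209.

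EREG was higher in granulosa in 9 of 9 animals, by 0.64 to 3.96, and the log2 difference was 2.44 ± 0.56 without sheep 209 (SE, limma adjusted p = 0.000964) and 2.25 ± 0.70 with it (0.0104). With sheep 209 this call was lost in edgeR (adjusted p = 0.402), DESeq2 (0.374), within prenatal T animals (limma adjusted p = 0.0696) and with no replicate block. PTGS2 was higher in theca in 9 of 9 animals. Without sheep 209 it averaged 1.43 ± 1.83 in granulosa (SD, n = 8) and 17.2 ± 8.13 in theca (n = 9), with a log2 difference of -3.16 ± 0.32 (SE, limma adjusted p = 1.84e-07). With sheep 209 the PTGS2 difference was -2.91 ± 0.75 (limma adjusted p = 0.00297). This call was then lost in edgeR (adjusted p = 0.424) and with no block (limma adjusted p = 0.139), and DESeq2 gave no adjusted p for PTGS2. Without sheep 209 no granulosa library reached the filter level for PTGS2 (highest 5.06), so theca libraries alone let it in. For EREG only sheep 315 reached that level in theca (22.8), so granulosa libraries mostly let it in. The filter thus admitted each gene by the layer where it was higher, which the adjusted p does not allow for.

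HAS2 was higher in granulosa in 8 of 9 animals, the exception being sheep 209. The log2 difference was 2.14 ± 0.62 without that sheep (SE, limma adjusted p = 0.00595) and 1.67 ± 0.69 with it (0.0476). With sheep 209 kept, leaving out any of sheep 210, 224, 230, 244, 246, 268, 276 or 315 ended the call, with limma adjusted p of 0.0643 to 0.118, and edgeR (0.877) and DESeq2 (0.873) did not call it. TNFAIP6 was higher in granulosa in 7 of 9 animals and PTX3 higher in theca in 7 of 9, and neither passed the test: the differences without sheep 209 were 0.84 ± 0.67 (limma adjusted p = 0.289) and -0.99 ± 0.51 (0.0987). AREG was higher in granulosa in 4 of 9 animals and at 0 in both layers of the other 5.

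Sheep 315 was the next animal with high levels. Among the libraries without sheep 209 it was the highest for 4 of 9 genes in granulosa (AREG, EREG, HAS2 and TNFAIP6) and 4 of 9 in theca (EREG, BTC, PTGS2 and PTX3), against 16.7% of all genes tested in granulosa and 13.7% in theca. Its granulosa EREG was 10.7 times that of the next library and its TNFAIP6 was 2.08 times, and its theca PTX3 was 2.33 times. With sheep 209 left out of these comparisons too, 5 of 6 luteal markers in its granulosa library were above the other 7 libraries, the sum being 57724, against 1700 to 47735, with oxytocin (OXT) at 2011, against a highest value of 58.1. TIMP1 made up most of that sum, at 51742, against 807 to 46791 in those libraries. All 7 macrophage markers were also above those 7 libraries, summing to 2712, against 211 to 1711, as were 4 of 9 epithelial markers (sum 4018, against 149 to 1989), 4 of 6 T and NK cell markers (519.8, against 56.2 to 416) and 4 of 8 smooth muscle and pericyte markers (19879, against 18055 to 44173). PTPRC made up most of the T and NK cell sum, at 384. The T cell markers CD3E (32.0, against 4.58 to 37.6) and CD3D (7.10, against 0.98 to 15.1) lay within the range of those libraries. Of 7 neutrophil markers 2 were above the other libraries and 4 (CSF3R, S100A8, MMP8 and MPO) were at 0, with a sum of 46.2, against 2.78 to 62.4. The granulosa markers, low in sheep 209, summed to 137970 in sheep 315, against 29871 to 118890, and 3 of 10 were above the other 7 libraries. INHBA (60870) and INHA (38080) made up most of that sum, while FSHR (1105, against 1793 to 3281) was below those libraries. The part of these cells in the levels of sheep 315 was not tested.

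The other genes of the ovulation pathway were read from 8 lists of 86 genes, of which 81 are in the table. None passed the threshold for prenatal T in either layer or for the difference between layers, with or without sheep 209. Of 65 tested in granulosa, 56 had a value above 0 with all libraries (median log2 change 0.54), and of 64 tested without sheep 209, 44 (median 0.13). Over all genes tested there, 48.3% were above 0 (median -0.0145), and 47.9% without sheep 209 (-0.0133). In theca 49 of 69 pathway genes were above 0 with all libraries (median 0.34) and 39 of 69 without sheep 209 (0.073). Over all genes tested in theca, 50% were above 0 (median 0.000146), and 48.3% without sheep 209 (-0.0125). The medians of the pathway genes were thus smaller without sheep 209 in both layers.

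Between the layers, 14 of 69 pathway genes were called higher and 37 lower in granulosa without sheep 209 (median log2 difference -0.48), where 32.9% of all genes were called higher and 32.2% lower, and 10 and 35 with it. Over all genes the median was 0.0202 without sheep 209. Among the other EGF-family ligands 1 of 4 was higher in granulosa, TGFA (49.8 ± 21.9 in granulosa and 16.4 ± 12.2 in theca, SD, n = 8 and 9), which like the ligands above activates EGFR. The other 2 called, the neuregulins NRG1 and NRG2, which bind ERBB receptors other than EGFR, were lower, with log2 differences of -2.54 ± 0.30 and -3.02 ± 0.26 (SE). Of 6 receptor and shedding genes 3 were higher and 2 lower. ADAM17, a protease that frees several EGF-family ligands, was 1799 ± 353 in granulosa and 994 ± 125 in theca. ERBB2, the partner receptor of EGFR, was 3318 ± 1016 in granulosa and 1518 ± 461 in theca, while ERBB3 was lower in granulosa by a log2 difference of -3.27 ± 0.39. Of 12 adaptors and feedback inhibitors 1 was higher, LRIG1 (0.38 ± 0.080), and 7 were lower, among them the inhibitor SPRY1 (-1.61 ± 0.13) and the adaptor SHC1 (-1.34 ± 0.060).

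Of 10 prostaglandin genes 1 was called higher in granulosa and 6 lower. The higher one was PTGES, which makes prostaglandin E2 from the product of PTGS2, at 537 ± 134 in granulosa and 82.8 ± 35.2 in theca (log2 difference 2.70 ± 0.18, limma adjusted p = 7.68e-10). PTGS2 and PTGES thus differed between the layers in opposite directions. The prostaglandin transporter SLCO2A1 (-1.78 ± 0.099) and the prostaglandin F receptor PTGFR (-1.93 ± 0.26) were lower in granulosa. Of 8 hyaluronan synthesis and turnover genes 0 were higher and 6 lower, among them the hyaluronidases CEMIP2 (-1.50 ± 0.12) and HYAL1 (-1.22 ± 0.12). Of 7 hyaluronan-binding and cross-linking genes 1 was higher, the hyaluronan receptor HMMR (1.28 ± 0.14), and 4 were lower, among them the receptor LAYN (-2.92 ± 0.23) and ITIH5 (-2.24 ± 0.30).

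Of 9 matrix protease genes 2 were called higher and 6 lower in granulosa. ADAMTS9, a protease that cleaves versican, was 259.6 ± 94.4 in granulosa and 1605 ± 278 in theca, the reverse of VCAN's order, and the plasminogen activator PLAT was lower as well (-1.72 ± 0.15). The protease CTSL was higher in granulosa (1.18 ± 0.49). Of 13 LH-response regulators 5 were higher and 4 lower: the transcription factors RUNX1 (1.92 ± 0.092) and NR5A2 (2.50 ± 0.17) were higher, and the progesterone receptor PGR (-1.84 ± 0.12) and the phosphodiesterase PDE4D (-2.08 ± 0.23) were lower.

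The genes most like each member were sought over the 17 libraries without sheep 209, by the mean absolute difference of standardized log2 values after centring each layer, among 16021 genes. HAS2 was most like SLC3A1 (0.255 SD, against a median of 1.12 over all genes), VCAN most like NAA15 (0.297 SD) and DDX18 (0.318 SD), and TNFAIP6 most like TFPI (0.335 SD) and CDC14A (0.398 SD). PTX3 was most like GDAP1 (0.337 SD) and COL18A1 (0.348 SD), and EREG most like IL4R (0.358 SD). BTC, EGFR and PTGS2 had no gene closer than ELMOD1 (0.475 SD), VARS (0.43 SD) and MOSPD2 (0.507 SD). No member was among the 2 genes most like another member. The closest of 16021 genes lies below the median by the way it was picked, and no likeness was tested.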

How the data were processed

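Total RNA libraries (SMARTer Stranded Total RNA-Seq Kit) were made from granulosa and theca cells, per the labels' protocols. Per the submitters' processing notes, reads were handled with STAR 2.6.0c, the Subread package 1.6.1 (featureCounts), DESeq2, MultiQC 0.9 and FastQC 0.11.5; the genome build and the strand setting of the counting are not given in the sources used here, so overlapping antisense reads cannot be told apart. The deposited signal values are gene counts divided by a size factor per library by the authors: 100% of the values in every library were whole multiples of 1 read (tolerance 1e-06), so reads were recovered for the count tests.

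The test was limma 3.58.1 (R 4.3.3) with a trend on log2(value + 1), two-sided, with Benjamini-Hochberg adjustment over all genes tested (threshold 0.05), for genes that reached a level of 10 in 5 or more libraries of the fit. A fold change on this scale understates changes of low genes. Each layer was fitted alone for prenatal T against control. The difference of effects and granulosa against theca were fitted on all 4 groups with the animal as a block (duplicateCorrelation), whose within-animal correlation was 0.624, or 0.524 without sheep 209. The pairing comes from the sheep IDs in the labels: deviations of the layers of an animal correlated at 0.4186 to 0.7966, and were the best match in 9 of 9 animals. No 2 libraries of a group were repeats (chi-square over degrees of freedom was 27.66 or more in 36 pairs). Alternatives were edgeR 4.0.16 and DESeq2 1.42.0 on the recovered reads, pseudocounts, filters, the block and leaving out animals. Leaving out sheep 209 and 315 together, and leaving out sheep 209 with no filter, with the block for prenatal T or within prenatal T animals, were chosen after seeing the data. The fits were tested on simulated data.

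Named genes are the 9 members in every comparison, pathway genes past the threshold for prenatal T, the 2 of smallest p in each direction of each list between the layers without sheep 209, and the 2 genes most like each member; 1 gene that this rule names is not reported here. Members and lists were chosen with earlier results of these data known. The listed aromatase gene was read under its name in the table, CYP19. CD163, S100A12, TRAC, GZMB, PRLR, EGF, NRG4, ERBB4, ABCC4 and SULT1E1 were not analysed here. Within a group each library is from another animal, so n counts animals.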

Additional observations from a re-analysis of the deposited data

Results flagged for a closer look

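Of 36 groups of 4 or 5 libraries examined (9 genes, 2 layers, 2 treatments), 8 held a library far from the rest by Dixon's criterion on the log2 scale. Chance alone meets it in about 1 of 20 groups of normally distributed values. Groups mostly at 0 are not of that kind, and the same animal enters many groups, so that rate is no measure for these 8. Sheep 209 accounted for 6 of them, all in the prenatal T groups: AREG in theca at 359.34 (all other prenatal T theca libraries at 0), BTC in granulosa at 207.12 (others 89.4 to 93.5), PTGS2 in granulosa at 3048.1 (others 0 to 1.15) and in theca at 7279.2 (others 7.17 to 32.995), VCAN in granulosa at 6756.7, as the lowest (others 28878 to 40526), and VCAN in theca at 80403 (others 8690 to 13344). In control groups, HAS2 in the granulosa of sheep 246 was at 253.67, against 8.82 to 15.4 in the other 3. AREG in control theca was at 1.0578 in sheep 139, which is 1 read, against 0 in the other 4.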

How the results depend on the processing

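Of the recomputed changes of single genes, 272 of those with 1 animal left out and 326 of the others kept their direction and side of the threshold. With 1 animal left out, 13 turned direction and 8 lost their call. Among the others, 34 turned direction, 17 lost their call and 2 gained one. The 25 lost calls were all for granulosa against theca. The count of genes called for prenatal T was 0 in granulosa with limma, 16 with DESeq2, 32 with DESeq2 without sheep 209, 1 with a replicate block in one model of all groups and 4 with that block without sheep 209. In theca it was 0 with limma, 7 with DESeq2 and 58 with DESeq2 without sheep 209, which called 2 members, VCAN (0.71) and TNFAIP6 (2.67). With 1 animal left out, 0 genes and 0 members were called for prenatal T in granulosa and in theca, 0 to 1 genes and 0 members for the difference between layers (1 without sheep 210 and 1 without sheep 224), and 8376 to 10441 genes and 5 to 6 members for granulosa against theca. The difference between layers had 3 genes called with a pseudocount of 0.5 and 2 with no filter. Granulosa against theca had 5812 genes called with edgeR, 5729 with no replicate block and 5595 within prenatal T animals, against 9309, and the members called were 2 with edgeR and 3 each with DESeq2, with no replicate block, within control and within prenatal T animals, against 6. At an unadjusted p under 0.05, the difference between layers had 128 genes with no replicate block, against 881, and prenatal T in granulosa had 1092 with the replicate block in one model, against 622. Reversed directions all concerned values that did not pass the test. For prenatal T in granulosa, PTX3 was -0.45 with edgeR and -0.44 with DESeq2 without sheep 209, and -0.14 without sheep 209 and 315. In theca, EGFR was -0.068 without sheep 209 (likewise with no filter and with a replicate block). In the same libraries, without sheep 209, EGFR was -0.060 with edgeR and -0.063 with DESeq2, and it was -0.045 without sheep 209 and 315. HAS2 was -0.16 without sheep 209 (likewise with no filter and with the block), and also without sheep 209 it was -1.12 with edgeR and -1.14 with DESeq2. Without sheep 209 and 315, PTGS2 was -0.0077 and PTX3 -0.32. For the difference between layers, edgeR and DESeq2 gave -1.06 and -1.08 for EREG, 1.11 and 1.28 for PTGS2, -2.20 and -2.19 for HAS2, and -1.52 and -1.49 for TNFAIP6; edgeR gave -0.065 for PTX3. Without sheep 209 they gave -0.78 and -0.75 for TNFAIP6 and -1.16 and -1.12 for PTX3. TNFAIP6 was -0.15 with a pseudocount of 4 and -0.32 without sheep 209 and 315. VCAN was 0.047 without sheep 209, 0.052 with no filter and 0.045 with DESeq2 in the same libraries, and 0.030 without sheep 209 and 315. With 1 animal left out these differences ranged from -0.51 to 1.10 for HAS2, -1.08 to 0.69 for TNFAIP6, -0.41 to 1.38 for PTX3 and -1.36 to 0.047 for VCAN. In theca the prenatal T change with 1 animal left out ranged from -0.068 to 0.20 for EGFR and -0.16 to 2.43 for HAS2. For granulosa against theca, PTX3 was 0.46 with edgeR and 0.43 with DESeq2. The causes were not tested. A count of 0 allows up to 3.44 normalized counts of AREG and up to 3.55 of PTGS2.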

Other observations

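Outside sheep 209 the matrix genes did not share one order of animals. The granulosa library of control sheep 224 had the highest PTX3 of the 8, at 1248, while TNFAIP6 was at 0 there and EREG at 0.556. Control sheep 246 had the highest HAS2 of the controls, at 254 in granulosa and 102 in theca, with TNFAIP6 at 14.5 in granulosa and 5.41 in theca. Prenatal T sheep 276 had the highest VCAN in granulosa, at 40526, with HAS2 at 6.88 there and at 0 in theca. BTC averaged 90.9 ± 1.83 in the 4 prenatal T granulosa libraries without sheep 209 and 82.7 ± 22.1 in the 4 control granulosa libraries (SD), and the difference in spread was not tested.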
